A study of Mus musculus with 20 samples.

Results

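Glycolysis and hypoxia-inducible genes are described here across cultured mouse haematopoietic stem and progenitor cells of 3 genotypes, wild type and heterozygous or homozygous knockout of Runx2, a DNA-binding RUNX transcription factor. The group holds 35 genes of the 49997 in each count table, and its members were named one by one from the glycolytic pathway and from known hypoxia-inducible genes. It covers 2 glucose transporters, 10 genes of upper glycolysis and its regulation, 7 of lower glycolysis, 4 of pyruvate and lactate handling, the hypoxia-inducible factor (HIF) subunits Hif1a and Epas1 with the HIF prolyl hydroxylases Egln1 and Egln3, and 8 further genes known to be induced by low oxygen. All 35 passed the filter on low counts in HSC. In HPC 34 passed, and adrenomedullin (Adm) did not.

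Polyadenylated RNA was sequenced in 18 libraries, 3 for each of 6 groups. HSC were sorted from bone marrow as CD201+CD150+cKit+Sca1+Lineage- cells and HPC as CD201-CD150-cKit+Sca1+Lineage- progenitors. Both are labelled as cultured primary cells, and each came as wild type (WT), Runx2 heterozygous knockout (het) and Runx2 homozygous knockout (hom). The series text names Runx2-flox mice or CRISPR as the source of the knockout, the labels do not say which applied to a library, and they give no age, culture time or oxygen level. The labels also do not say whether replicates were separate animals or cultures, so p-values rest on how far libraries of a group differed, a spread that may be technical only.

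Glycolysis splits glucose into pyruvate in a chain of enzyme steps, and lactate dehydrogenase then turns pyruvate into lactate. HIF alpha subunits are destroyed when oxygen is present, because EGLN prolyl hydroxylases mark them. When oxygen is low they accumulate and switch on glucose transporters, most glycolytic enzymes, Pdk1, and genes such as Bnip3 and Car9. Pdk1 holds pyruvate back from oxidation within mitochondria. Haematopoietic stem cells in the marrow are known for a strong reliance on glycolysis, and HIF-1 alpha is known to take part in it.

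The libraries held 16663497 to 27061457 counts, so that 3 counts, the floor used here, stood for 0.111 to 0.18 CPM, the unit of counts scaled to library size. CPM used TMM library factors fitted within each population unless stated. Runx2 itself followed the labels: it was at 126.4, 133.4 and 130.4 CPM in HSC WT, 90.04, 96.05 and 87.6 in HSC het and 27.52, 30.39 and 26.73 in HSC hom. In HPC it was at 112.2, 120.1 and 119.5 CPM in WT, 98.69, 100.3 and 92.03 in het and 21.87, 20.87 and 23.04 in hom. The genotypes did not overlap in either population. Of the sort markers, Procr, the gene of CD201, was at 48.4 CPM ± 7.73 (SD, n = 3) in HSC WT and 5.22 ± 0.563 in HPC WT, and Ly6a, the gene of Sca1, was listed at 0 in all 18 libraries. HSC libraries held the Y-linked Ddx3y at 121.7 to 167 CPM, whereas HPC libraries held none and carried Xist at 2553 to 4441 CPM, so population and sex cannot be told apart in any comparison of HSC with HPC.

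The hypoxia-response core, ACGTG or GCGTG on either strand, is the short motif that HIF is known to bind, and 4 promoters are shown, chosen after the values were seen. Aldoc, Mxi1 and Egln3 had HPC calls that held without any 1 library, and Bnip3, whose calls were less firm, is the member whose hom effect differed between populations. The choice does not stand for the members as a whole, since the listed promoter of Eno2, for example, held no core. They are the 250 bases before an annotated start in RefSeq (GRCm38.p6, the mm10 build), written 5′ to 3′ along the gene's strand, with hypoxia cores and RUNX cores (TGTGGT or TGCGGT on either strand) in capitals. Aldoc, the brain-type aldolase, at chr11:78322823-78323072 on the plus strand, had 1 hypoxia core at -50 from the start and 1 RUNX core at -192.
Aldoc: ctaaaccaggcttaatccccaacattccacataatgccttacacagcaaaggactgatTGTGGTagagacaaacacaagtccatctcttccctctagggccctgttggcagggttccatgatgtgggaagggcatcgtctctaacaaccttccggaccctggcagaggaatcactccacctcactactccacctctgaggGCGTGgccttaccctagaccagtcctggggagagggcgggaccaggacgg
Mxi1, a repressor that competes with MYC for MAX, at chr19:53329163-53329412 on the plus strand, had 1 hypoxia core at -66 before this downstream start, which lies within the gene's longer transcript, while the listed promoter of its first start held 0.
Mxi1: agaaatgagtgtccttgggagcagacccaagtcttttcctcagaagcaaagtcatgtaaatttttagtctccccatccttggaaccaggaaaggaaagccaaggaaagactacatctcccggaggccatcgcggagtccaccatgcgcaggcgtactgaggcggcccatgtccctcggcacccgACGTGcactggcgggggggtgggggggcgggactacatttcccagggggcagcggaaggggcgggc
Egln3, the HIF prolyl hydroxylase PHD3, at chr12:54203875-54204124 on the minus strand, had 1 hypoxia core at -229.
Egln3: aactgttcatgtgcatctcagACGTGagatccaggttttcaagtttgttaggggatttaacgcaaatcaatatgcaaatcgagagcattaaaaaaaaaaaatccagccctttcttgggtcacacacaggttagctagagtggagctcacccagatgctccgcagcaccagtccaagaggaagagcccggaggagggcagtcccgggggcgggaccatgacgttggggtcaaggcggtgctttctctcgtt
Bnip3, which marks mitochondria for removal, at chr7:138909507-138909756 on the minus strand, had 5 hypoxia cores, 2 of them the same 6 bases (CACGTG) read from both strands.
Bnip3: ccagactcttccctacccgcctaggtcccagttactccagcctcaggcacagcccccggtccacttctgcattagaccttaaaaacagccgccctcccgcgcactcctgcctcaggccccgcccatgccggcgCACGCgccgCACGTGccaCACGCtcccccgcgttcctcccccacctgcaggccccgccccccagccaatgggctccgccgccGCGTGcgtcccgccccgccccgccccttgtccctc

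RefSeq listed 48 promoters for 31 of the 35 members, and those of Slc2a3, Bnip3l, Ndrg1 and Epas1 were not in the table used. A hypoxia core was found in 37 of the 48 (77.1%), against 38.6% of all 32851 promoters of the same length. Members were named as glycolytic or known hypoxia-inducible genes, so an excess follows from that choice and is not a separate result. Some windows of a gene overlap, as in Eno1, so a core can be counted more than once. By gene, 28 of the 31 members had at least 1. The RUNX core was found in 6 of the 48 (12.5%), in Slc2a1, Hk1, Pfkp, Aldoc, Pdk1 and Car9, against 18.6% of all promoters. The CACGTG palindrome, which is also an E-box read by MYC and MXI1 partners, was found in 6 of the 48 (12.5%) against 6.02% of all. These are matches of letters, not measured binding, and no CUT&Tag data were used here.

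Expression of the pathway was high in all groups, and the levels below are FPKM, CPM per kilobase of exon computed here with library factors fitted over all 18 libraries. In HSC WT the most abundant members were Gapdh at 1140 FPKM ± 35.1 (SD, n = 3), Eno1 at 1030 ± 33, Pgk1 at 810 ± 10.5, Tpi1 at 717 ± 26.6, Aldoa at 702 ± 4.36 and Pkm at 672 ± 13.5. In HPC WT the same 6 genes led, with Gapdh at 1220 FPKM ± 70.5, Pgk1 at 1180 ± 58.2, Eno1 at 1040 ± 81.3, Pkm at 793 ± 53, Tpi1 at 731 ± 60.7 and Aldoa at 712 ± 32. The means of Gapdh and Pgk1 in HPC differed by less than the SD of either. Eno2, the neuronal enolase, was far below Eno1 and stood at 2.67 FPKM in HSC WT and 0.578 in HPC WT.

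Where a step has several genes, 1 of them often carried most of the length-corrected expression (FPKM). In HSC WT, Pfkl, the liver-type phosphofructokinase, held 73.5% of the summed FPKM of the 3 phosphofructokinase genes, Pfkm, the muscle type, 17.4% and Pfkp, the platelet type, 9.04%. Aldoa held 87.4% of aldolase FPKM, Pfkfb3 88.7% for Pfkfb3 and Pfkfb4, and Egln3 85.7% for Egln1 and Egln3. Pfkfb3 and Pfkfb4 are bifunctional regulators that make or remove an activator of phosphofructokinase. Hif1a held 97.4% ± 0.784 (SD, n = 3) of the FPKM of the 2 HIF alpha genes in HSC WT and 99.2% ± 0.294 in HPC WT. Hexokinase, the glucose transporters and the monocarboxylate transporters were more evenly shared, with Hk1 at 60% of Hk1 and Hk2, Slc2a3 at 58.3% of Slc2a1 and Slc2a3, and Slc16a3 at 57.1% of Slc16a1 and Slc16a3 in HSC WT.

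Some hypoxia-inducible members stayed low. In WT cells of HSC and HPC respectively, Adm stood at 0.288 and 0.244 FPKM, Epas1 at 0.574 and 0.233, and Car9, a surface carbonic anhydrase, at 9.68 and 7.25. Adm had 0 to 25 counts in a library, and its CPM of 0 to 0.921 lay close to the floor. Others were well expressed: Egln3 stood at 199 and 198 FPKM and Bnip3 at 146 and 152.

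In HSC no member passed the test in any of the 3 genotype comparisons, while some calls in het, given below, depended on the tool and the libraries. In hom against WT, 0 of the 35 members passed edgeR's quasi-likelihood test at an adjusted p under 0.05, where 2.01% of all 14959 genes tested did (300 genes). At an unadjusted p under 0.05 there were 4 members (11.4%, against 18.4% of all genes), Bnip3, Bnip3l and Hif1a lower and Car9 higher, and DESeq2 also called 0. The median log2 fold change was -0.01 over the members and 0.00 over all genes, with 17 members above 0 and 18 below. The libraries of hom and WT did not overlap for 8 members, against 24.5% of all genes. For the 32 members at 20 CPM or more, every 95% interval lay between 0.763-fold (Slc16a1) and 1.49-fold (Car9) of WT, so larger changes than these fell outside the intervals of the fit.

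Hif1a and the mitophagy genes Bnip3 and Bnip3l had lower values in hom HSC, short of the threshold. Hif1a was at 117.1, 117.9 and 104.1 CPM in HSC WT, 99.51, 90.54 and 89.1 in het and 103.6, 96.99 and 99.54 in hom. All het and hom libraries lay below all WT libraries, and the log2 fold changes were -0.28 ± 0.07 (SE) in het and -0.18 ± 0.07 in hom, with adjusted p of 0.188 and 0.223 in edgeR. Bnip3 was at 272.8, 262.6 and 283.6 CPM in WT, 247.7, 261.7 and 283.3 in het and 227, 254.4 and 233.5 in hom, and the hom libraries lay below the WT libraries. Its hom difference was -0.20 ± 0.07 with an adjusted p of 0.173 in edgeR. The related receptor Bnip3l differed by -0.15 ± 0.07 (adjusted p = 0.259 in edgeR). Summed G2 and mitosis genes ran from 2106 to 2244 CPM in HSC WT, 1804 to 1981 in het and 1880 to 1930 in hom (12 genes, 1 called lower in hom), and their part in these values was not tested. Epas1 was at 2.346, 3.712 and 3.938 CPM in HSC WT, 3.795, 2.556 and 2.328 in het and 1.954, 3.112 and 2.647 in hom, with overlap between all 3 groups.

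In het HSC against WT, 0 of 35 members passed either, where 0.0334% of all genes did (5 genes), and 7 members (20%) had an unadjusted p under 0.05, against 13.8% of all genes. The libraries of the 2 groups did not overlap for 10 members, against 23% of all genes. The hypoxia-inducible gene Ankrd37, an ankyrin-repeat protein, differed most among the members above 20 CPM: it was at 34.37, 28.74 and 43.96 CPM in WT, 55.48, 52.45 and 59.95 in het and 40.97, 46.23 and 41.57 in hom. Every het library was above every WT and hom library. The het difference was 0.65 ± 0.13 (log2, SE) with an adjusted p of 0.117 in edgeR, but DESeq2 called it (adjusted p = 0.00148), as did edgeR without WT replicate 3 (adjusted p = 0.0241). Slc16a1, the lactate and pyruvate carrier MCT1, was at 134.2, 113 and 113.5 CPM in WT, 98.37, 90.59 and 98.75 in het and 123.5, 106.1 and 91.03 in hom. Its het libraries lay below the WT libraries, with a difference of -0.33 ± 0.10 (adjusted p = 0.224 in edgeR). Aldoc was at 297.8, 302.1 and 328 CPM in WT and 349.3, 359.7 and 394.9 in het, without overlap, a difference of 0.25 ± 0.08 (adjusted p = 0.217 in edgeR). In hom it was at 296.4, 336.7 and 307 CPM, over the range of WT.

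Between hom and het HSC, 0 of 35 members passed, where 0.0134% of all genes did (2 genes), and 5 members (14.3%) had an unadjusted p under 0.05, against 11.7% of all genes. The libraries of the 2 groups did not overlap for 6 members, against 16% of all genes. DESeq2 called 0 members here.

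**Figure D1:**
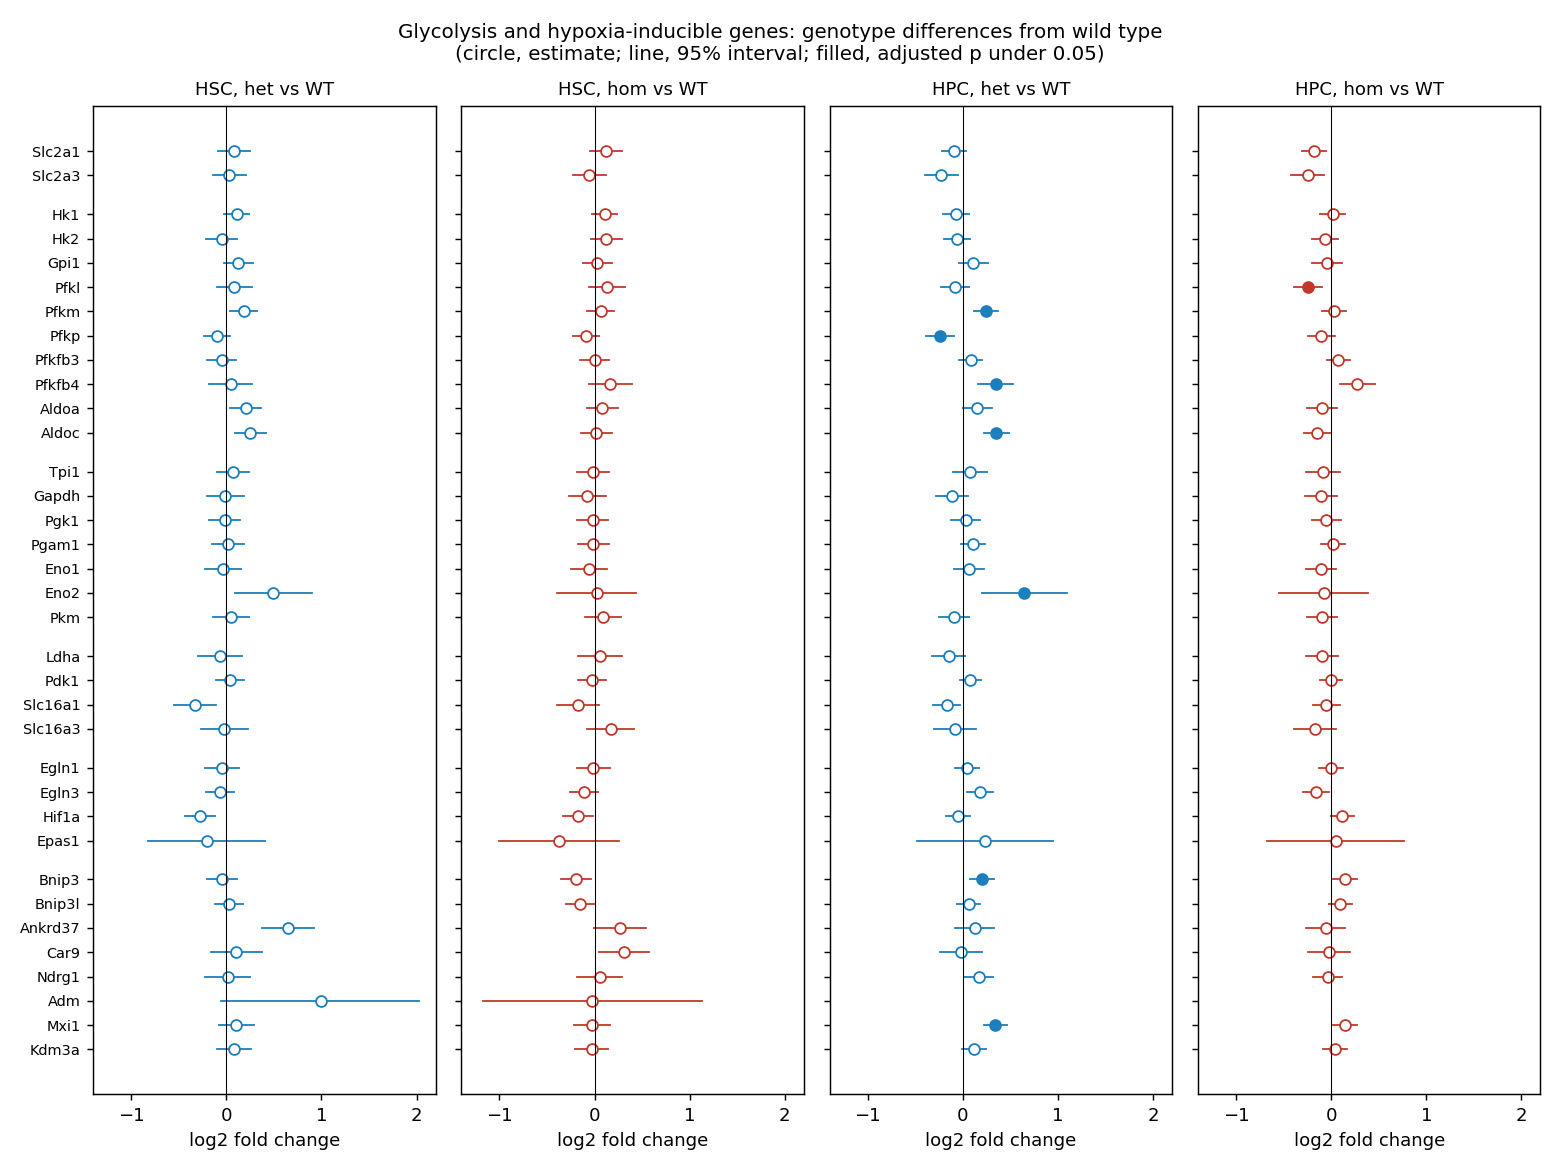
Log2 fold change of each member against wild type of the same population (circles, with 95% intervals as lines), grouped by role from glucose uptake at the top to other hypoxia-inducible genes at the bottom; filled circles passed an adjusted p of 0.05 in edgeR. No circle is filled in HSC, 7 are filled for HPC het and 1, Pfkl, for HPC hom.

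In HPC the heterozygous libraries stood out for a small set of members. Aldoc, Mxi1, Pfkm, Pfkfb4, Eno2 and Bnip3 rose in het against WT and Pfkp fell, by 1.15- to 1.56-fold for those that rose. That is 7 of 34 members (20.6%), against 16.1% of all 13855 genes tested in this comparison, and 6 of the 7 were higher, against 9.15% higher and 6.99% lower among all genes. The share of members called was thus near the background of a comparison with many calls. The median log2 fold change was 0.07 over the members and 0.00 over all genes, and the groups did not overlap for 11 members, against 33.9% of all genes.

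Aldoc was at 227.4, 199.5 and 204.2 CPM in HPC WT, 254, 282.1 and 269.4 in het and 191.9, 195.5 and 182.3 in hom. The 3 genotypes did not overlap, with het highest and hom lowest. It rose by 0.35 ± 0.06 (log2, SE) in het against WT with an adjusted p of 0.000822 in edgeR, and was lower in hom than in het by 0.50 ± 0.06 (log2; 70.7% of het, adjusted p = 8.59e-05 in edgeR). Hom against WT gave -0.15 ± 0.06 (adjusted p = 0.181). Mxi1 was at 58.61, 60.32 and 61.95 CPM in WT, 73.51, 78.07 and 77.51 in het and 67.7, 67.31 and 65.03 in hom. Its 3 genotypes did not overlap either, with WT lowest. The rise in het was 0.34 ± 0.06 (adjusted p = 0.000506 in edgeR), and hom was lower than het at 87.3% (adjusted p = 0.0417). Both het differences from WT kept an adjusted p under 0.05 when each of the 6 libraries was left out in turn (at most 0.00949 for Aldoc and 0.00477 for Mxi1 in edgeR).

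Within upper glycolysis the phosphofructokinase genes moved apart. Pfkm was at 83.85, 79.23 and 75.89 CPM in HPC WT, 94.68, 95.19 and 93.11 in het and 83.18, 83.9 and 76.48 in hom. The het libraries were above all others, and the difference from WT was 0.24 ± 0.06 (adjusted p = 0.00934 in edgeR; 0.0589 without WT replicate 3). Pfkp was at 246.3, 227.7 and 247.4 CPM in WT, 184.9, 218.5 and 208 in het and 208.4, 233.6 and 230 in hom, and it fell by 0.24 on the log2 scale in het, all het libraries lying below WT (adjusted p = 0.0228 in edgeR). This call was lost without WT replicate 1, WT replicate 3 or het replicate 1, where the adjusted p reached 0.137. Pfkl was at 563.7, 549.7 and 524.2 CPM in WT, 486.1, 544.2 and 512.4 in het and 485.2, 487 and 415.4 in hom. All hom libraries were below all WT libraries.

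Pfkl (mm10, chromosome 10, 77986947 to 78009807) was the 1 member of 34 that passed in HPC hom against WT (2.94% against 9.21% of all genes, 4.92% higher and 4.29% lower), at 84.7% of WT with an adjusted p of 0.0373 in edgeR. Groups did not overlap for 10 members, against 26.4% of all genes. The call on Pfkl was lost when any WT library or hom replicate 3 was left out, where the adjusted p reached 0.172. As shares of phosphofructokinase FPKM, Pfkm made up 12.5% ± 0.209 (SD, n = 3) in HPC WT, 15.5% ± 0.764 in het and 14.5% ± 0.291 in hom, the WT range of 12.3% to 12.8% lying below both. Pfkl made up 75.9% ± 0.606, 74.3% ± 0.422 and 73.1% ± 1.56 in the same order. A small part of Pfkm's exons (8.33% of their length) overlaps Senp1, and counting did not use strand, so reads there cannot be assigned to 1 gene with certainty. The same holds for Adm (20.4% of exon length), Slc16a3 (10.6%) and Car9 (7.13%), and for smaller parts of some other members.

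Pfkfb4, the less abundant of the 2 bifunctional regulators among the members, was at 13.13, 13.73 and 14.42 CPM in HPC WT. It was at 17.57, 18.27 and 16.57 in het and 16.44, 17.18 and 16.35 in hom. All knockout libraries were above all WT libraries. The difference was 0.34 ± 0.09 in het (adjusted p = 0.0128 in edgeR; lost without WT replicate 1 or het replicate 2, up to 0.0631) and 0.28 ± 0.09 in hom (adjusted p = 0.0617). Eno2 was at 1.698, 1.727 and 2.01 CPM in WT, 2.938, 2.688 and 2.875 in het and 1.756, 1.65 and 1.743 in hom, with het above both other genotypes. Its rise in het of 0.64 ± 0.21 (adjusted p = 0.0458 in edgeR) was not called by DESeq2, nor in any of the 6 fits made with 1 library fewer, with an adjusted p up to 0.152. Eno1 held 99.9% of enolase FPKM in all 3 HPC genotypes.

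Bnip3 was at 252.5, 245.2 and 247.4 CPM in HPC WT, 280, 271.9 and 303.3 in het and 275.8, 266.1 and 282.8 in hom. Every knockout library was above every WT library. The rise was 0.20 ± 0.06 in het (adjusted p = 0.0252 in edgeR), which ended when WT replicate 2, WT replicate 3, het replicate 1 or het replicate 3 was left out (adjusted p up to 0.135), and hom against WT gave 0.15 ± 0.06 (adjusted p = 0.14).

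Hom HPC were lower than het HPC for Aldoc, Egln3, Pfkm, Aldoa, Eno2 and Mxi1, and no member was higher. That is 6 of 34 members (17.6%), where 9.4% of all genes were called, 3.63% higher and 5.77% lower. Groups did not overlap for 12 members, against 27.5% of all genes. Ndrg1 fell short of the threshold, at 86.9% of het with overlap between the groups (adjusted p = 0.0837 in edgeR), but 3 alternative fits called it. This comparison uses the same het libraries as het against WT, and het and hom against WT share the WT libraries, so these sets of values are not independent. Egln3 was at 501.3, 487.3 and 489.9 CPM in WT, 526.4, 601.9 and 547.2 in het and 442.3, 462.5 and 420.5 in hom. The genotypes did not overlap, with het highest and hom lowest. Hom was at 79.1% of het (adjusted p = 0.00253 in edgeR), whereas het against WT gave 0.18 ± 0.06 (adjusted p = 0.0623) and hom against WT -0.16 ± 0.06 (adjusted p = 0.147).

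Aldoa, the main aldolase, was at 1665, 1545 and 1597 CPM in HPC WT, 1610, 1879 and 1847 in het and 1503, 1590 and 1400 in hom. The hom libraries lay below the het libraries and overlapped WT, and hom was at 84.2% of het (adjusted p = 0.0401 in edgeR). Pfkm was at 86.1% of het (adjusted p = 0.0307) and Eno2 at 60.7% (adjusted p = 0.0421). Of these 6 calls, those of Aldoc and Egln3 held in all 6 fits that left out 1 library (adjusted p at most 0.00122 and 0.0241 in edgeR). Those of Pfkm and Eno2 were lost in all 6, and those of Aldoa and Mxi1 in all but the fit without het replicate 1.

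The heterozygous mean was the highest of the 3 genotypes for 20 of 34 members in HPC (58.8%), against 34.5% of all genes tested, and for 15 of 35 in HSC (42.9%), against 30.8%. It was the lowest for 7 of 34 members in HPC (20.6%) and 8 of 35 in HSC (22.9%), against 35.8% and 29.7% of all genes. These counts are descriptive, since members of 1 pathway are not independent. Over the 6 genotype comparisons 10 members were called at least once (28.6%, against 21.2% of all genes tested in HSC or HPC) and 25 were not. Adm, counted among the 25, was tested only in the HSC comparisons. Gpi1, Tpi1, Pgam1, Eno1, Egln1, Pdk1 (a pyruvate dehydrogenase kinase), Slc16a3 (a lactate exporter) and Kdm3a (a histone demethylase) were among the 25. They did not pass between the WT populations in the main fit either. Slc16a3 came close there, at 81.5% of HPC in HSC (adjusted p = 0.0546 in edgeR), with all HSC libraries below all HPC libraries. It was called in 6 alternative fits of that comparison.

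**Figure D2:**
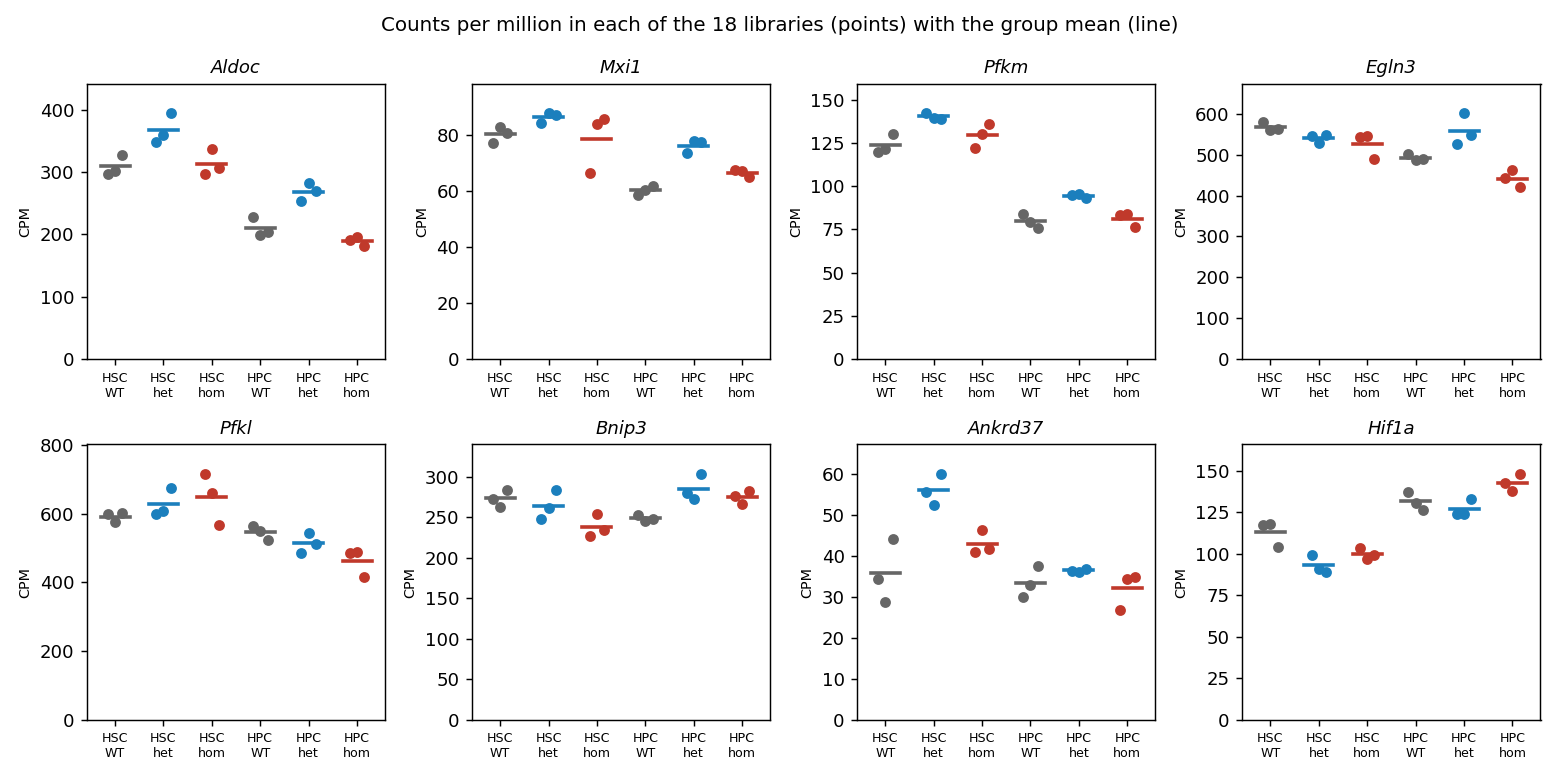
CPM (vertical axes, starting at 0) of 8 members in each of the 18 libraries, with points for libraries and short lines for group means. Both populations share the axis of a panel. Library factors were fitted within each population, so levels of HSC and HPC are not to be compared here. Aldoc, Mxi1, Pfkm and Egln3 are highest in het among the HPC genotypes, Pfkl is lowest in hom HPC, Bnip3 is below WT in hom HSC and above WT in hom HPC, Ankrd37 is highest in het HSC, and Hif1a is below WT in both knockout genotypes of HSC.

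The glucose transporters had lower values in knockout HPC, short of the threshold. Slc2a1, the gene of GLUT1, was at 114, 108.1 and 105.5 CPM in HPC WT, 100.2, 107.2 and 99.34 in het and 96.06, 100.9 and 92.36 in hom. All hom libraries lay below all WT libraries, with a difference of -0.18 ± 0.06 (adjusted p = 0.0697 in edgeR). Slc2a3, the gene of the high-affinity transporter GLUT3, was at 497.8, 467.9 and 513.1 CPM in WT, 394.9, 446.8 and 422.8 in het and 350, 454.3 and 440.2 in hom, so that both knockout groups lay below WT. The difference was -0.25 ± 0.08 in hom (adjusted p = 0.0745 in edgeR) and -0.23 ± 0.08 in het (adjusted p = 0.0753). DESeq2 called both Slc2a3 differences, with adjusted p of 0.0416 and 0.0457. In HSC Slc2a1 was at 148.6, 145.4 and 151.2 CPM in WT, 143.4, 156 and 171.5 in het and 172.5, 161.8 and 150.2 in hom, with overlap.

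The HIF genes themselves were not called in HPC. Hif1a was at 137.3, 130.7 and 126.6 CPM in WT, 124.2, 123.7 and 132.9 in het and 142.7, 137.5 and 148.1 in hom. Its hom libraries lay above all others, by 0.12 ± 0.06 against WT (adjusted p = 0.246 in edgeR) and 0.17 ± 0.06 against het (adjusted p = 0.0757). Epas1 was at 0.8261, 1.634 and 1.092 CPM in WT, 1.679, 0.9327 and 1.559 in het and 1.33, 1.504 and 0.8482 in hom, with overlap.

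Gapdh, Pgk1 and Ldha, among the most abundant members, were not called in any genotype comparison. Gapdh was at 2328, 2142 and 2128 CPM in HPC WT, 1860, 2156 and 2085 in het and 2077, 2214 and 1827 in hom, with overlap between all 3. In HSC it was at 2414, 2265 and 2372 CPM in WT, 2203, 2232 and 2576 in het and 2478, 2212 and 1989 in hom. Pgk1 was at 2102, 1964 and 1947 CPM in HPC WT, 1869, 2079 and 2186 in het and 1920, 2039 and 1840 in hom. In HSC Pgk1 was at 1599, 1555 and 1569 CPM in WT, 1509, 1474 and 1682 in het and 1591, 1613 and 1451 in hom. Its values overlapped between genotypes in both populations. Ldha, which makes lactate, was at 1685, 1449 and 1445 CPM in HPC WT, 1258, 1441 and 1424 in het and 1470, 1523 and 1299 in hom, the het libraries lying just below the WT libraries. In HSC Ldha was at 1396, 1310 and 1276 CPM in WT, 1254, 1176 and 1370 in het and 1614, 1395 and 1130 in hom, a range within hom that took in all WT libraries. The lowest adjusted p over the 6 genotype comparisons in edgeR was 0.382 for Gapdh, 0.53 for Pgk1 and 0.232 for Ldha, the last for HPC het against WT.

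Summed over 16 genes, the glycolytic enzymes and Ldha, the libraries gave 16890, 16320 and 16650 CPM in HSC WT, 16450, 16390 and 18590 in het and 17940, 17220 and 15370 in hom. In HPC the sums were 17390, 16020 and 15840 CPM in WT, 15100, 17270 and 16680 in het and 15520, 16410 and 14350 in hom. The genotypes overlapped in both populations. Sums of HSC and HPC are each on their own population's scale and are not compared. Hom HPC averaged 94% of WT and hom HSC 101%. For the 30 members at 20 CPM or more in HPC, the 95% intervals of hom against WT lay between 0.745-fold (Slc2a3) and 1.2-fold (Bnip3).

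**Figure D3:**
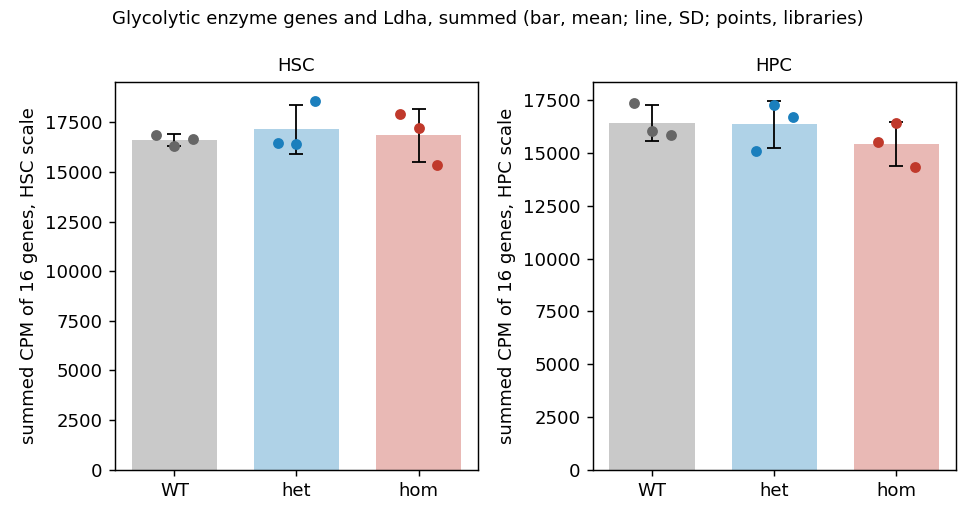
Summed CPM of 16 genes (the glycolytic enzymes and Ldha) in each group, with bars for means of 3 libraries, lines for the SD and points for libraries, on axes from 0. Each panel has its own population's scale; genotypes overlap within both, with means from 16620 (WT) to 17150 (het) in HSC and from 15430 (hom) to 16420 (WT) in HPC.

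Marker sums of other cell types and of the cell cycle moved with the HPC genotypes. The summed neutrophil granule genes (11 found) ran from 1522 to 1616 CPM in WT, 1891 to 2289 in het and 2510 to 2671 in hom, with 4 of 10 tested genes higher in het and 8 of 10 in hom, and Lcn2 at 0 in all HPC libraries. Monocyte and macrophage genes (10) ran from 387.7 to 424.4, 686.3 to 697 and 680.5 to 769.5 CPM, with 9 of 10 higher in het and 8 of 10 in hom. Megakaryocyte genes (8) ran from 473.4 to 531.9, 232.8 to 316.2 and 317.5 to 490.2 CPM, with 5 of 8 lower in het and 1 of 8 lower in hom. G2 and mitosis genes (12) ran from 2109 to 2304, 1802 to 1962 and 2156 to 2276 CPM, with 6 of 12 lower in het against WT and 5 of 12 higher in hom against het. T cell genes (7) stood at 53.4% of WT in het and 39.9% in hom, with 2 and 3 of 4 tested genes lower. Cd3e was at 0 in all 18 libraries, and Cd3d and Cd3g averaged 0.105 CPM or less in each HPC group. The sum lay mostly in Thy1 (23.6, 9.02 and 6.78 CPM in WT, het and hom), Lck and Tcf7. It thus does not show that T cells were present. Cd5 went the other way, at 0.364, 0.478 and 0.602 CPM. Eosinophil genes (4) stood at 213% and 267%, with 1 and 2 of 2 tested genes higher. Mast cell and basophil genes (10) stood at 108% and 159%, with 2 and 4 of 6 tested genes higher and 1 lower in each. Of 8 HSC marker genes, 5 were lower and 2 higher in hom HPC. The part of these shifts in the members' values was not tested, and in bulk RNA fewer cells of a type and less RNA per cell cannot be told apart. In HSC the same granule genes summed to 67.49 to 101.5 CPM over all genotypes. T cell genes, again mostly Thy1, Lck and Tcf7, stood at 65.9% of WT in hom, with 2 of 4 tested genes lower.

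The hom effect differed between populations for 1 member. In the fit of all 18 libraries, the hom effect on Bnip3 in HSC minus that in HPC was -0.36 ± 0.09 (log2, SE), with an adjusted p of 0.0345 in edgeR. That is 1 of 35 members (2.86%), where 2.79% of all 15431 genes were called, 1.06% higher and 1.73% lower (164 and 267 genes). Within each population the hom difference of Bnip3 did not pass, as given above (-0.20 in HSC and 0.15 in HPC). Leaving out 1 library ended the call in 8 of 12 fits, with an adjusted p up to 0.126, namely those without any 1 of the HSC WT libraries, HSC hom replicate 1, HPC WT replicate 2 or 3, or HPC hom replicate 1 or 3. It was also lost when libraries were scaled by their totals alone (adjusted p = 0.0638), where the split over all genes turned to 263 higher and 157 lower and Pfkl was called instead. Hif1a had a difference of -0.32 ± 0.09 (adjusted p = 0.0667 in edgeR), and Pfkl one of 0.35 ± 0.12 (adjusted p = 0.103). DESeq2 called 4 members, Bnip3, Bnip3l and Hif1a lower and Pfkl higher.

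Between the wild-type populations the members differed about as often as other genes. In HSC WT against HPC WT 19 of 35 (54.3%) passed, against 54.9% of all genes, 8 higher in HSC and 11 lower, where 27.7% and 27.2% of all genes were. Libraries did not overlap for 23 members, against 64.5% of all genes. CPM in this comparison used library factors fitted over all 18 libraries, and these were 1.058 to 1.065 in HSC WT and 0.9148 to 0.9576 in HPC WT. Scaling by library totals alone, an alternative added after the data were seen, moved the median of all genes from 0.03 to 0.21 (log2) and the members' split to 11 higher and 7 lower (all genes from 4274 and 4195 to 6031 and 2665). Slc2a3, Hk1, Pkm and Ldha then no longer passed, and Pgam1, Egln3 and Kdm3a were called higher. Directions below are relative to the TMM scale, on which no called member turned under any setting tried.

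Higher in HSC were mostly minor isoforms and low genes. Eno2 was at 7.166, 10.49 and 9.348 CPM in HSC WT and 1.839, 1.844 and 2.157 in HPC WT, 4.62-fold higher (log2 2.21 ± 0.20, adjusted p = 3.35e-09 in edgeR). Epas1, the gene of HIF-2 alpha, was at 2.201, 3.495 and 3.691 CPM in HSC WT and 0.8946, 1.744 and 1.172 in HPC WT, 2.47-fold higher (adjusted p = 0.00142). Pfkfb4 was at 25.54, 27.59 and 28.12 CPM in HSC WT and 14.21, 14.65 and 15.47 in HPC WT, 1.83-fold higher (adjusted p = 9.09e-08). The populations did not overlap for these 3 genes. Pfkm was at 112.4, 114.2 and 121.8 against 90.81, 84.57 and 81.44 CPM, 1.36-fold higher (adjusted p = 3.15e-06), and Car9 at 22.93, 21.51 and 19.5 against 14.71, 14.85 and 18.29 CPM, 1.33-fold (adjusted p = 0.00455). Aldoc was at 279.4, 284.5 and 307.4 against 246.2, 212.9 and 219.2 CPM, 1.28-fold (adjusted p = 0.00019).

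Slc2a1 was at 139.5, 136.9 and 141.7 CPM in HSC WT and 123.5, 115.4 and 113.2 in HPC WT, 1.19-fold higher (adjusted p = 0.00456 in edgeR). Mxi1 was at 72.53, 78.09 and 75.75 against 63.47, 64.38 and 66.49 CPM, 1.17-fold (adjusted p = 0.0155). The call on Mxi1 was lost without HSC WT replicate 2 or HPC WT replicate 1, where the adjusted p reached 0.0635. All HSC libraries nonetheless lay above all HPC libraries for both genes.

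Lower in HSC were Hif1a, several main enzymes and the transporters Slc2a3 and Slc16a1. Hif1a was at 109.9, 111 and 97.61 CPM in HSC WT and 148.7, 139.5 and 135.8 in HPC WT, 75.1% of HPC (adjusted p = 1.51e-05 in edgeR). Ndrg1, a stress- and hypoxia-inducible gene, was at 79.08, 85.08 and 74.02 against 121, 127.3 and 126.1 CPM, 63.6% (adjusted p = 1.19e-05). Pgk1, which lies on the X chromosome, was at 1500, 1464 and 1470 against 2277, 2096 and 2090 CPM, 68.6% (adjusted p = 2.33e-06). For this X-linked gene too, population and sex cannot be told apart.

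At the first steps of glycolysis, Hk2 was at 227.2, 237.6 and 220.8 CPM in HSC WT and 340.4, 304.6 and 307.4 in HPC WT, 72% (adjusted p = 7.45e-06 in edgeR), while Hk1, at 322.8, 320.5 and 327.3 against 396.9, 372.9 and 370.8 CPM, stood at 85.1% (adjusted p = 0.00238). Pfkfb3 was at 111.6, 121.1 and 112.7 against 152.2, 156.9 and 158.6 CPM, 73.9% (adjusted p = 4.27e-06). Pfkp was at 190.7, 207.6 and 191.9 against 266.8, 243 and 265.5 CPM, 76.1% (adjusted p = 4.62e-05). Both bifunctional regulators among the members thus differed between the populations, in opposite directions, Pfkfb4 being higher and Pfkfb3 lower in HSC.

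At the end of the pathway, Ldha was at 1310, 1234 and 1196 CPM in HSC WT and 1825, 1546 and 1550 in HPC WT, 76% (adjusted p = 0.00281 in edgeR). Pkm was at 2801, 2695 and 2725 against 3483, 3133 and 3088 CPM, 84.7% (adjusted p = 0.0212), a call lost without HSC WT replicate 2 or 3 or HPC WT replicate 1 (up to 0.103). Slc16a1 was at 126, 106.4 and 106.4 against 161.5, 148.5 and 139.2 CPM, 75.4% (adjusted p = 0.000723), and Slc2a3 at 389, 459.2 and 386.4 against 539.1, 499.4 and 550.7 CPM, 77.7% (adjusted p = 0.00116). Every HSC library lay below every HPC library for these 4 genes. Gpi1, Pfkl, Aldoa, Tpi1, Gapdh, Pgam1 and Eno1 did not pass, with log2 fold changes from -0.12 (Gpi1) to 0.06 (Pgam1).

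**Figure D4:**
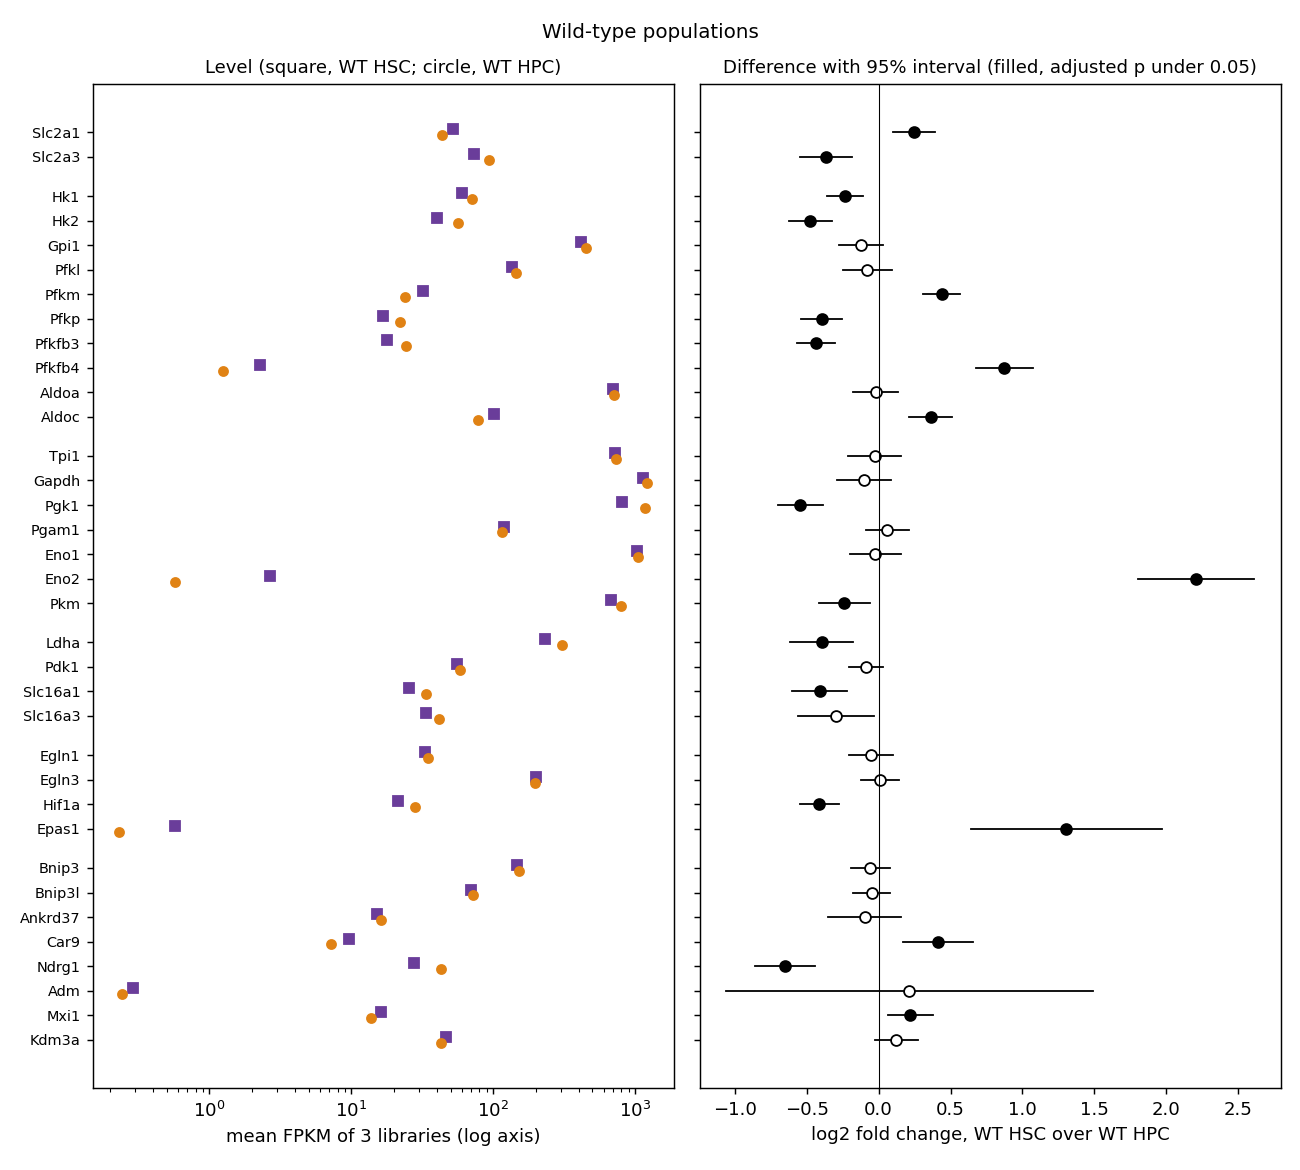
Left, mean FPKM of 3 libraries on a log axis for each member in wild-type HSC (squares) and HPC (circles), from 0.233 (Epas1 in HPC) to 1220 (Gapdh in HPC). Right, log2 fold change of HSC over HPC with 95% intervals, filled at an adjusted p under 0.05 in edgeR; the difference of Eno2 (2.21) is the largest.

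Other genes of the same pathways were read from 2 lists, 48 further genes of glycolysis and its branches and 53 further hypoxia-related genes. In HSC hom against WT, 0 of 43 tested glycolysis genes passed and 3 of 49 hypoxia genes did (6.12%, against 2.01% of all genes), with Stc2, a secreted stanniocalcin, higher (0.75 ± 0.15 log2, adjusted p = 0.0205 in edgeR) and Eloc, the elongin C subunit of the VHL ligase, and Lox, a lysyl oxidase, lower (-0.34 ± 0.08 and -2.55 ± 0.62). In het HSC 0 of 43 and 0 of 49 passed. In HPC hom against WT 3 of 42 glycolysis genes passed (7.14%, against 9.21% of all genes), with Hk3 and Pygl, the liver glycogen phosphorylase, higher (0.32 ± 0.07 and 0.23 ± 0.06) and Ldhb lower (-0.86 ± 0.24). Of 48 hypoxia genes 3 passed (6.25%), with the chemokine receptor gene Cxcr4 higher (0.38 ± 0.07) and Arnt2, a dimer partner of HIF-like factors, and Bhlhe40, a hypoxia-inducible repressor, lower (-2.17 ± 0.36 and -0.39 ± 0.08). All these adjusted p values were under 0.05 in edgeR over all genes.

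In HPC het against WT 5 of 42 glycolysis genes passed (11.9%), 4 higher and 1 lower, led by Pygl (0.37 ± 0.06), Hk3 (0.43 ± 0.07) and Pdk2 (0.66 ± 0.13). Of the hypoxia genes 9 of 48 passed (18.8%), 6 higher and 3 lower, with Anxa2 (0.35 ± 0.07) and Cxcr4 (0.39 ± 0.07) having the lowest p. The background was 16.1%. Between hom and het HPC 2 of 42 glycolysis genes passed (4.76%), Pdk2 and Ldhb, both lower, against 9.4% of all genes. Of 48 hypoxia genes 6 passed (12.5%), 4 lower and 2 higher, with Bhlhe40 (-0.36 ± 0.08) having the lowest p. Stc2, higher in hom HSC, was lower in het HPC than in WT (-0.55 ± 0.14, adjusted p = 0.0114 in edgeR). For the difference in hom effect, 0 of 44 and 1 of 49 passed (2.04%, against 2.79% of all genes). That gene was Stc2 (0.73 ± 0.20, adjusted p = 0.0484 in edgeR). Between the WT populations 26 of 44 (59.1%) and 29 of 49 (59.2%) passed, against 54.9% of all genes, with Hk3 lower in HSC (-2.69 ± 0.10) and Ldhd, the D-lactate dehydrogenase, higher (3.12 ± 0.21) at the lowest p. Hk3 is also known as a gene of the myeloid lineage, and its rise in both HPC knockout groups stands beside the rise of neutrophil granule genes given above, a link that was not tested.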

How the data were processed

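RNA of 18 libraries was analysed, 3 for each of 6 groups, and the 2 CUT&Tag samples were not analysed here. The deposited tables hold raw read counts per gene for 49997 genes, per the file headers, with exon coordinates on mm10. The submitters' processing notes name FastQC, Trim Galore 0.6.10, STAR 2.7.11a and featureCounts 2.0.6 and give mm39, so the build of the alignment is not settled, and coordinates here are those of the files. Counting treated the reads as unstranded, per the file headers.

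Genes were filtered with filterByExpr, scaled with TMM and tested by the robust quasi-likelihood method of edgeR 4.0.16 under R 4.3.3, with Benjamini-Hochberg adjustment over all genes tested (14959 in HSC, 13855 in HPC, 15431 in the fit of all 18 libraries). Each population was fitted with its 9 libraries; comparisons between populations used all 18. Called means an adjusted p under 0.05, standard errors come from the F statistic, and FPKM use merged exon length on the primary chromosome. Hk2 and Eno1 also have exons annotated on alternate contigs, which this length leaves out. The effect of these on the FPKM of Hk2 and Eno1 was not tested. Counts per library were 16663497 to 27061457, which limits precision at low levels by counting error, beside the spread between libraries. No 2 libraries of a group agreed within sampling noise (lowest chi-square per gene 4.61).

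The 35 members and all lists were chosen with earlier results of these data known. All members are accounted for. Values per library are given for members called in at least 1 comparison and for Hif1a, Epas1, Gapdh, Pgk1, Ldha and Slc2a1, and other members by counts or ranges. Of other pathway genes, up to 4 called genes per comparison were to be named by p. This was not kept to throughout. More were named for het and hom HPC against WT, and Stc2 in het HPC was named after its values were seen. Members with notable values that were not called, such as Ankrd37, were named after their values were seen. As alternatives, size factors by RLE replaced TMM, DESeq2 1.42.0 replaced edgeR, and fits were made with no filter, at least 1 CPM in 3 libraries, only the groups compared, a replicate block, or each library left out in turn. Scaling by library totals alone was added after the data were seen.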

Additional observations from a re-analysis of the deposited data

Results flagged for a closer look

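The effect of homozygous Runx2 knockout on Bnip3, the mitophagy receptor gene, differed between HSC and HPC by a test of the difference itself (interaction term in edgeR). It was -0.36 ± 0.09 (log2, SE) in HSC relative to HPC, with an adjusted p of 0.0345. Bnip3 was 1 of 35 members called (2.86%), close to the 2.79% of all genes called in this comparison. In HSC all 3 hom libraries lay below the WT libraries, and in HPC all 3 lay above them. Neither difference passed within its own population (adjusted p of 0.173 in HSC and 0.14 in HPC in edgeR). Over the 12 fits that left out 1 library the value stayed between -0.41 and -0.33. The adjusted p rose above 0.05 in 8 of them, as named in the report, and on library totals alone (0.0638 in edgeR). Population and sex cannot be told apart in this comparison.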

How the results depend on the processing

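No called member changed sign under any alternative run. With DESeq2 the genes called in HSC went from 300 to 794 for hom against WT, from 5 to 220 for het against WT and from 2 to 160 for hom against het, and those of the difference in hom effect from 431 to 831. Members called became 2 for HSC het against WT (Ankrd37 and Hif1a), 2 for HPC hom against WT (Slc2a3 added) and 4 for the difference in hom effect. Without a filter on low counts the same gene counts were 898, 399, 511 and 738, and members called were 2 (Ankrd37 and Slc16a1), 1 for HSC hom against het (Ankrd37), 2 for HPC hom against WT (Slc2a3 added) and 2 for the difference in hom effect (Pfkl added). With only the 2 groups compared, HSC gave 155, 299 and 1 genes, 2 members in het against WT (Ankrd37 and Slc16a1), and 3 members in HPC hom against het. Library totals without TMM factors gave 2 members in HPC hom against WT (Slc2a1 added). Same-numbered libraries correlated at -0.127 to 0.224, and in 0 of 7 comparisons were all pairs over 0.1. The main fits did not pair them, but this rule cannot exclude a pairing. In HSC hom against WT 6 of 6 libraries correlated best with their own number, and in HPC hom against WT 4 of 6. In the rest it was 0 to 2 of 6. This is a hint from the data and not the design. A replicate block gave 189 genes in HSC hom against WT and 2 members in HPC hom against WT (Slc2a3 added).

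Leaving out 1 library gave 48 (HSC WT replicate 2) to 638 (hom replicate 3) genes for HSC hom against WT, 2 to 7 for HSC het against WT and 1 to 408 (hom replicate 3) for HSC hom against het. It gave 701 (het replicate 2) to 1179 for HPC hom against het and 149 (HPC WT replicate 2) to 941 (HSC hom replicate 3) for the difference in hom effect. Members called ranged from 0 to 1 in HSC het against WT, 0 to 2 in HPC hom against WT, 3 (HPC WT replicate 3) to 6 in HPC het against WT, 2 to 5 in HPC hom against het, 0 to 3 in the difference in hom effect and 17 to 20 between the WT populations. For HSC, 0 members were called in hom against WT under all alternatives run. Except where an alternative changes the genes or libraries tested, the cause was not tested. Depth limits Adm, which had 0 to 25 counts in a library.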
